A study of Mus musculus with 10 samples.

Results

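Kainate receptors are one of the ionotropic glutamate receptor families, and the 7 genes described here are their 5 subunit genes, Grik1 to Grik5, together with Neto1 and Neto2, which encode their auxiliary proteins. The genes were chosen by name, not by their measured values, though with earlier results of these data known. A gene was a member when its Ensembl identifier, without the version suffix, mapped to one of these symbols. All 7 were found among the 22255 genes of the deposited gene table, and all 7 passed the filter on low counts. RNA had been taken from hippocampal synaptoneurosomes, a preparation enriched in resealed nerve terminals and the spine heads attached to them, of wild-type C57Bl/6J mice. One group of 5 libraries came from mice given vehicle and the other group of 5 from mice given AM6545 sub-chronically. AM6545 is a cannabinoid CB1 receptor antagonist that crosses into the brain poorly, and the comparison asked whether treatment with it was accompanied by a different RNA content in this fraction. The labels give no dose, age, sex or batch, and they do not say whether a library was 1 mouse or a pool, so the p-values below measure only the spread between libraries.

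A kainate receptor is a cation channel assembled from subunits around a central pore. GluK1, GluK2 and GluK3, made from Grik1, Grik2 and Grik3, bind kainate with lower affinity and can form channels by themselves, whereas the high-affinity subunits GluK4 and GluK5, from Grik4 and Grik5, need one of the former as a partner. In the hippocampus these receptors are best known at the mossy fibre synapse between dentate granule cells and CA3 pyramidal cells, where they carry a slow postsynaptic current and also act presynaptically, and on interneurons, where Grik1 is prominent. Neto1 and Neto2 are single-pass membrane proteins with CUB domains that bind the receptor and slow its kinetics.

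In GRCm38 with GENCODE M21 annotation, Grik1 (ENSMUSG00000022935) spans chr16:87895900-88290265, Grik2 (ENSMUSG00000056073) chr10:49094833-49788766, Grik4 (ENSMUSG00000032017) chr9:42518135-42944493, Grik5 (ENSMUSG00000003378) chr7:25009849-25072346 and Neto2 (ENSMUSG00000036902) chr8:85636588-85700924, all on the minus strand. Grik3 (ENSMUSG00000001985) spans chr4:125490700-125714173 on the plus strand, and Neto1 (ENSMUSG00000050321) also lies on a plus strand. An exon of Neto2 overlaps the microRNA gene Mir8109 on the opposite strand, and an exon of Grik4 overlaps Gm24420 on the same strand, so reads there could belong to either gene.

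Several members are spliced in ways that alter the encoded protein, and the deposited transcript table separates those forms. The alternative stretches on which the isoform percentages below rest are printed here with 15 bases of the neighbouring exon on each side, or on the 5′ side alone for Grik2, where the coding sequence ends, in capitals for the alternative stretch and lower case for the flanks. All 5 are read 5′ to 3′ on the minus strand of GRCm38 with GENCODE M21 exons. They are a 45-base exon of Grik1 that adds 15 codons (chr16:87955289-87955333, exon 9 of Grik1-211) and an 87-base exon of Grik1 that adds 29 codons (chr16:87896809-87896895, exon 16 of Grik1-202). The others are the coding part of an alternative exon near the 3′ end of Grik2 that ends the protein early (exon chr10:49104979-49105065, exon 16 of Grik2-204), a 25-base extension of an exon at its donor site in Grik5 (chr7:25067985-25068009, exon 3 of Grik5-202), and a 21-base donor extension in Neto2 (chr8:85663387-85663407, exon 5 of Neto2-205).
Grik1 45-base exon: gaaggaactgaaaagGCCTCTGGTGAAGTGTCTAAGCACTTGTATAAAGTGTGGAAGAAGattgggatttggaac
Grik1 87-base exon: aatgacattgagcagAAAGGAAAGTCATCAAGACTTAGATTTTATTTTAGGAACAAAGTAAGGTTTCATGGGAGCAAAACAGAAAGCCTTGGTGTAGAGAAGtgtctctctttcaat
Grik2 alternative tail exon: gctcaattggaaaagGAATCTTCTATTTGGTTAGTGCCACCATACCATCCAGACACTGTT
Grik5 donor extension: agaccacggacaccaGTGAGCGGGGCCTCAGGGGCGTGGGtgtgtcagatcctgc
Neto2 donor extension: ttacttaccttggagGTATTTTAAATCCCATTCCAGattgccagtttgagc

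The libraries held 18106112 to 25899794 counts. Markers of hippocampal excitatory neurons were all detected, with a mean log2 CPM (TMM-scaled counts relative to the library total) of 8.07 to 8.26 in vehicle and 8.12 to 8.33 in AM6545 libraries. Glial RNA was present as well, since the mean over 6 astrocyte markers was 8.03 to 8.48 and that over 6 oligodendrocyte markers 9.72 to 10.7 across the 10 libraries. The scores that varied most were those of 6 choroid plexus markers, 1.81 to 6.8, and 5 red blood cell markers, 5.19 to 7.44. Both were lowest in vehicle replicate 4. In bulk RNA of this kind, fewer cells or terminals of a type and less RNA in each cannot be told apart. Vehicle replicate 1 had the lowest excitatory neuron, astrocyte and oligodendrocyte precursor scores and the highest CA3 and interneuron scores. It also held the lowest Grik2, Grik4 and Neto2 levels of the 10 libraries in CPM. In TPM, the length-scaled measure defined below, it was lowest for every member except Grik3. The part of this library's composition in those values was not tested.

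All 7 genes were expressed in every library, with 153 counts or more each, and the group means stood in the same order by level per length in both groups. Levels between genes are compared in TPM (a length-scaled measure with the same total in every library, computed from the deposited transcript counts and annotated transcript lengths). Grik5 had the highest mean over the 10 libraries, 26.9 TPM with a range of 23.9 to 34.2. Neto1 followed with 22.3 TPM (17.5 to 26.3), and Grik5 was above it in 10 of 10 libraries although the ranges overlapped. Grik4, which pairs with the low-affinity subunits, stood at 18.1 TPM (10.3 to 22.1). Neto2 at 15.2 TPM (11.9 to 18.5) and Grik2 at 15.1 TPM (8.76 to 18.2) could not be ordered, with Neto2 higher in 7 of 10 libraries, nor were Grik4 and Neto2 separated in every library, since Grik4 was higher in 8 of 10. Grik1 had a mean of 7.44 TPM (5.43 to 8.42) and lay below Grik2 in every library without overlap. Grik3 was the lowest at 2.04 TPM (1.69 to 2.39), without overlap with Grik1. The first places depend on the length used: with merged exon lengths, without length, or with protein-coding transcripts alone, Neto1 was first and Grik5 second, and with the first 2 of these settings Neto2 was also above Grik4. Grik2, Grik1 and Grik3 kept the lowest 3 places, in that order, under each of these settings.

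**Figure D1:**
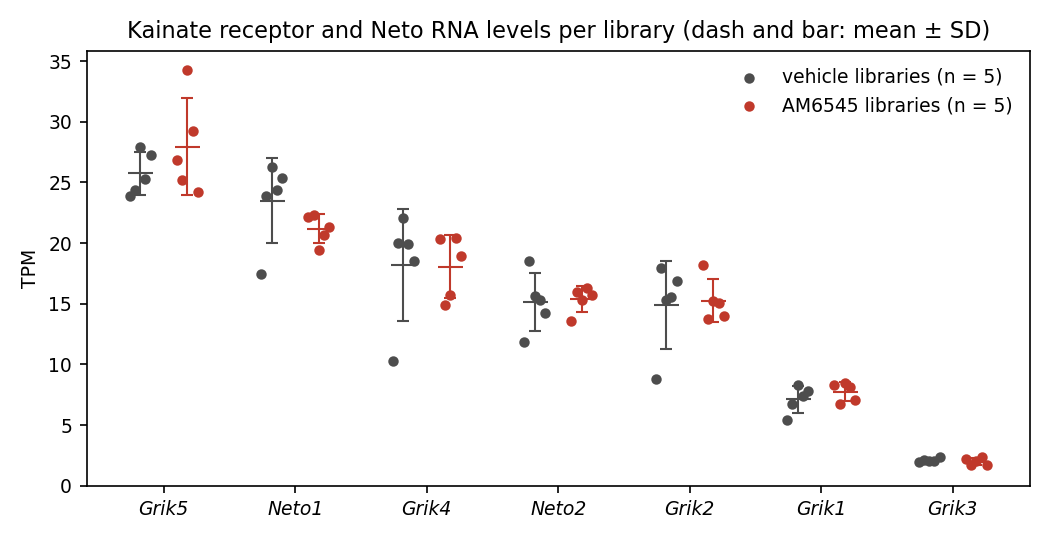
Level of each member in TPM, computed from the deposited transcript counts, in the 5 vehicle and 5 AM6545 libraries, with points for libraries and dashes and bars for the group mean and SD. Grik5 and Neto1 stand highest, with means of 26.9 and 22.3 TPM, and Grik3 lowest at 2.04 TPM, and for each of the 7 genes the 2 groups overlap.

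No member passed the test of a difference between AM6545 and vehicle. By edgeR's quasi-likelihood test 0 of 7 members had an adjusted p under 0.05, 0 of 7 had an unadjusted p under 0.05, and the adjusted p was 0.9998 for each of them. The background over the 14358 genes tested was 0% for the adjusted threshold and 1.88% for the unadjusted one. In 0 of 7 members did all AM6545 libraries lie on one side of all vehicle libraries, against a background of 0.174% of genes with all AM6545 libraries above and 0.118% with all below. The DESeq2 Wald test and limma-voom also called 0 of 7 at an adjusted p under 0.05, against 0% and 0.00696% of all genes. The first had 0 members at an unadjusted p under 0.05, with a background of 1.92% of genes. Limma-voom had 1, Neto1, with a background of 4.92% of genes.

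Among the low-affinity subunits, Grik1, the subunit typical of interneurons, was measured at 10.8, 10.6, 14.4, 12.9 and 13.1 CPM in vehicle replicates 1 to 5 and at 13.6, 11.9, 14.5, 13.7 and 11.9 CPM in AM6545 replicates 1 to 5. The groups overlapped, with vehicle replicates 1 and 2 lowest. The means were 12.4 ± 1.61 CPM (SD, n = 5) in vehicle and 13.1 ± 1.17 CPM in AM6545, a log2 fold change of 0.09 with an SE of 0.12. The 95% interval of the fold was 0.895 to 1.26.

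Grik2, the main principal-cell subunit of the mossy fibre synapse, was at 23.8, 36.4, 34.8, 35.3 and 36.1 CPM in the vehicle libraries and at 36.9, 33.6, 33.9, 33.2 and 30.1 CPM in the AM6545 libraries. Vehicle replicate 1 stood well below the other 9 libraries, which spanned 30.1 to 36.9 CPM in both groups together. The group means were 33.3 ± 5.34 and 33.5 ± 2.43 CPM (SD, n = 5 each), and the log2 fold change was 0.01 with an SE of 0.12 and a fold interval of 0.849 to 1.20. The log2 fold change was -0.09 without vehicle replicate 1 and -0.03 without AM6545 replicate 1, so its sign is not settled.

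Grik3, whose subunit is activated only by high glutamate concentrations, had 10.2, 8.95, 9.54, 9.75 and 10.6 CPM in vehicle and 9.68, 7.96, 9.37, 10.9 and 7.57 CPM in AM6545 libraries. The lowest and the highest value both belonged to the AM6545 group. The means were 9.79 ± 0.617 and 9.10 ± 1.35 CPM (SD, n = 5 each), with a log2 fold change of -0.11, an SE of 0.12 and a fold interval of 0.775 to 1.12. A single transcript, Grik3-201, represents this gene in the table.

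Of the high-affinity subunits, Grik4, which in the hippocampus is known from CA3 and the dentate gyrus, was at 21.9, 33.4, 41.9, 38.0 and 33.4 CPM in vehicle and 37.4, 28.6, 30.1, 37.6 and 33.8 CPM in AM6545 libraries. It was the most variable member, with an SD of log2 CPM over the 10 libraries of 0.266 against a median of 0.209 over all genes tested, and vehicle libraries held both its extremes. The means were 33.7 ± 7.51 and 33.5 ± 4.12 CPM (SD, n = 5 each). The log2 fold change was -0.01 with an SE of 0.14 and a fold interval of 0.805 to 1.23.

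Grik5, the broadly expressed partner subunit, was at 51.4, 41.7, 54.7, 49.2 and 51.4 CPM in vehicle and at 49.5, 48.8, 65.4, 55.3 and 45.2 CPM in AM6545 libraries. AM6545 replicate 3 was highest and vehicle replicate 2 lowest, and the other 8 values interleaved. The means were 49.7 ± 4.87 and 52.8 ± 7.91 CPM (SD, n = 5 each), and the log2 fold change was 0.09 with an SE of 0.11 and a fold interval of 0.903 to 1.25. Without AM6545 replicate 3 the log2 fold change was 0.0012, so the size of the estimate rests on that library.

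Neto1, the auxiliary protein of the slow mossy fibre current, which also associates with NMDA receptors, had the smallest unadjusted p of the 7 in edgeR. It was at 84.5, 81.6, 106.7, 105.1 and 97.8 CPM in vehicle and at 86.9, 88.8, 83.7, 87 and 83.1 CPM in AM6545 libraries. The AM6545 values were tightly grouped, 0 of 5 lay above the vehicle median, and 0 of 5 lay below the lowest vehicle value. The means were 95.2 ± 11.6 and 85.9 ± 2.43 CPM (SD, n = 5 each). The log2 fold change was -0.15 with an SE of 0.10 (edgeR adjusted p = 0.9998), and the fold interval of 0.784 to 1.04 includes no difference. With limma-voom and sample quality weights the log2 fold change was -0.19 (limma-voom adjusted p = 0.915). An antisense gene overlaps an exon of Neto1 in the annotation, and the use of strand is not given in the sources used here, so reads of the 2 cannot be told apart.

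Neto2, the second auxiliary protein, was at 31.7, 39.8, 37.5, 37.6 and 33.3 CPM in vehicle and at 32.2, 38.5, 37.1, 39.6 and 37.2 CPM in AM6545 libraries. It was the steadiest member, with an SD of log2 CPM of 0.121, and low and high values occurred in both groups. The means were 36.0 ± 3.36 and 36.9 ± 2.84 CPM (SD, n = 5 each), with a log2 fold change of 0.04, an SE of 0.10 and a fold interval of 0.889 to 1.18.

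**Figure D2:**
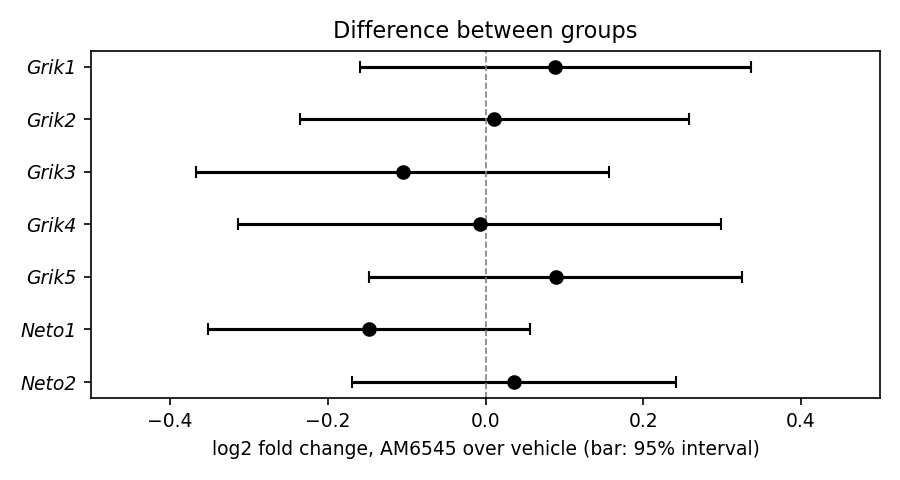
Log2 fold change of each member, AM6545 against vehicle, from edgeR with its 95% interval, n = 5 libraries per group. All 7 intervals cross 0, and the estimates run from -0.15 for Neto1 to 0.09 for Grik5.

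The make-up of the receptor pool was compared as each subunit's percent of the summed TPM of Grik1 to Grik5 within a library. Grik5 contributed most, 38.4 ± 5.24% in vehicle and 39.4 ± 3.82% in AM6545 (SD, n = 5 each), followed by Grik4 with 26.3 ± 3.59% and 25.5 ± 3.15%. Grik2 made up 21.6 ± 2.95% and 21.5 ± 1.62%, Grik1 10.5 ± 0.603% and 10.9 ± 0.143%, and Grik3 3.13 ± 0.445% and 2.80 ± 0.239%. The low-affinity subunit genes together were thus the smaller part of this RNA, 35.3 ± 2.32% in vehicle and 35.2 ± 1.58% in AM6545 libraries. The size of a subunit's share depends on the length used: over the 10 libraries Grik2 averaged 21.6% with transcript lengths and 12% with merged exon lengths, and Grik3 averaged 2.96% and 5.03%. Without length Grik4 and Grik2 were nearly equal, at 23.85% and 23.79%. With protein-coding transcripts alone Grik5 averaged 34.0% and Grik4 28.6%. Grik5 had the largest mean share under each of these settings.

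None of these shares passed the test of a difference between the groups. The smallest p among the members was for Grik1, whose share was 10.8, 9.44, 10.9, 10.5 and 10.7% in vehicle and 10.9, 10.8, 11.1, 10.9 and 10.8% in AM6545 libraries. Vehicle replicate 2 was low and the rest were close together, and the difference of 0.420 percentage points had an exact two-sided permutation p of 0.0952, adjusted to 0.476 over 20 shares of ionotropic receptor and Neto genes. Without vehicle replicate 2 the difference was 0.157 points (exact permutation p = 0.190, adjusted p = 0.381), and with protein-coding transcripts alone it was 0.232 points (exact permutation p = 0.818, adjusted p = 0.908). The exact permutation p was 0.0476 with merged exon lengths (adjusted p = 0.190) and 0.0317 without vehicle replicate 3 (adjusted p = 0.212). For Grik3 the difference was -0.330 points (exact permutation p = 0.167, adjusted p = 0.476), and the exact p for Grik2, Grik4 and Grik5 lay between 0.683 and 0.913. The 5 against 5 design allows a smallest p of 0.00794. The NMDA receptor gene Grin2a, with groups that did not overlap, had this exact permutation p, and it was adjusted to 0.159 over 20 shares. A single share at the smallest p could therefore not pass the adjustment. The adjusted values thus do not show that the shares were alike.

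**Figure D3:**
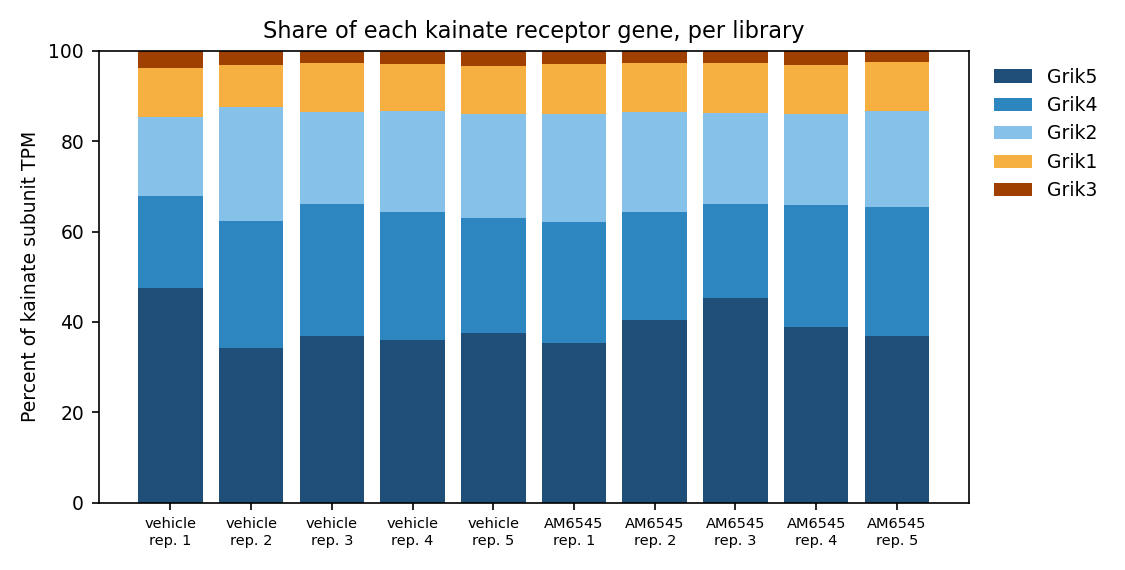
Percent of the summed kainate receptor TPM taken by each subunit gene in each library, by group. Grik5 and Grik4 take the largest parts in both groups, and vehicle replicate 1 has the highest Grik5 share at 47.5% with a low Grik2 share of 17.4%.

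Of the TPM of the 2 auxiliary genes, Neto1 made up 60.8 ± 3.0% in vehicle and 58.0 ± 2.49% in AM6545 (SD, n = 5 each; exact permutation p = 0.143, adjusted p = 0.476). In the single libraries this was 59.5, 56.4, 62.7, 61.5 and 64.1% in vehicle and 62.0, 58.4, 56.0, 56.0 and 57.5% in AM6545, so the groups overlapped. Over the 10 libraries Neto1 averaged 59.4% with transcript lengths, 64.5% with merged exon lengths and 71.2% without length. Summed Neto TPM over summed kainate subunit TPM was 0.568 ± 0.0206 in vehicle and 0.520 ± 0.0665 in AM6545, with a range of 0.459 to 0.615.

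Kainate subunits were a small part of the ionotropic glutamate receptor RNA. They were 5.62 ± 0.167% of the TPM of the 18 ionotropic receptor genes in vehicle and 5.82 ± 0.394% in AM6545 (SD, n = 5 each), against 78.4% and 77.7% for AMPA receptor genes and 15.6% and 16.1% for NMDA receptor genes. AM6545 replicate 5 had the highest kainate percent, 6.46%, and the other 9 libraries lay between 5.39 and 5.83%. AMPA receptor TPM exceeded kainate receptor TPM by a ratio of 14.0 ± 0.573 in vehicle and 13.4 ± 0.962 in AM6545. These sums over chosen genes are given without a test.

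The 7 genes had 40 transcripts in the table, of which 36 had a count and 21 passed the filter. By edgeR 0 of 21 had an adjusted p under 0.05 and 0 had an unadjusted p under 0.05. The background over 31848 transcripts was 0.00314% for the adjusted threshold and 1.97% for the unadjusted one. Usage, the change of a transcript relative to its gene's other transcripts, was tested for 19 of them with edgeR, with 0 at an adjusted p and 0 at an unadjusted p under 0.05, against 0.0194% and 0.925% of 25724 transcripts.

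The counts of Grik2 lay mostly in 2 forms: Grik2-202 took 62.8% of its counts on average and Grik2-207 23.6%, and both encode 908 residues. Grik4 was read mainly from Grik4-201 (86.3%), and Grik4-202, which has the same coding length of 956 residues, took the rest. Grik4-202 had the smallest p of the members' transcripts. Its counts were 64, 77, 79, 116 and 92 in vehicle and 165, 105, 92, 126 and 74 in AM6545 libraries, with overlapping groups. The log2 fold change was 0.40 with an SE of 0.19 (edgeR adjusted p = 0.9999). With DESeq2 1 transcript of the 7 genes had an unadjusted p under 0.05 and 0 had an adjusted one, against 2.74% and 0.0345% of all transcripts.

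Grik1 estimates moved strongly from library to library. The exon percentages were taken of the summed TPM of Grik1-201, Grik1-202, Grik1-209 and Grik1-211, with the gene's other forms left out. The 45-base exon was in 54.9 ± 10.7% of that sum in vehicle and 55.0 ± 5.06% in AM6545 (SD, n = 5 each, exact permutation p = 0.960). The 87-base exon was in 40.9, 11.5, 35.0, 35.8 and 31.3% in vehicle and 22.6, 28.5, 8.36, 28.1 and 26.7% in AM6545 libraries. Vehicle replicates 1, 3, 4 and 5 lay above every AM6545 library and vehicle replicate 2 near the lowest, so the groups overlapped. The difference was -8.06 percentage points (exact permutation p = 0.254, adjusted p = 0.613 over 25 percentages). Over 25 percentages, a single one at the smallest possible p could not pass the adjustment either. These percentages rest on few reads, 16 to 101 counts per library for the forms with the 87-base exon.

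Of the summed TPM of Grik2-202, Grik2-204 and Grik2-207, the form with the alternative tail, of 869 residues, was a minor part. It was at 9.53 ± 4.15% in vehicle and 9.93 ± 5.96% in AM6545 (SD, n = 5 each, exact permutation p = 0.905), from 3 to 75 counts per library. The Neto2 form with the 21-base extension was set against the summed TPM of Neto2-201, Neto2-203 and Neto2-205. It was at 40.3, 33.1, 41.5, 32.3 and 36.5% in vehicle and 30.4, 35.6, 37.0, 28.8 and 29.2% in AM6545 libraries. The 3 lowest values were from AM6545 and the 2 highest from vehicle libraries, with the ranges overlapping, and the difference of -4.56 points had an exact permutation p of 0.111 (adjusted p = 0.510). The forms with and without a stretch also differ elsewhere in some transcripts, so the reads behind a percentage need not cover the stretch.

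Grik5 held the most uneven estimate. Its 25-base extension shifts the reading frame, and Grik5-202 is annotated as a target of nonsense-mediated decay with 130 coding codons in place of 979 in Grik5-201. Grik5-202 was estimated at 415, 136, 277, 145 and 0 counts in vehicle and 239, 0, 684, 0 and 0 counts in AM6545 libraries. In AM6545 replicate 3 it was above Grik5-201, which had 498 counts there, and in 4 libraries it was listed at 0. A 0 in estimated counts can come from how shared reads were divided between the forms, which was not tested. Grik5-202 made up 19.3 ± 15.4% of the summed TPM of Grik5-201 and Grik5-202 in vehicle and 15.7 ± 25.6% in AM6545 (SD, n = 5 each, exact permutation p = 0.825). The Grik5 gene total, summed over the forms, did not have such gaps.

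**Figure D4:**
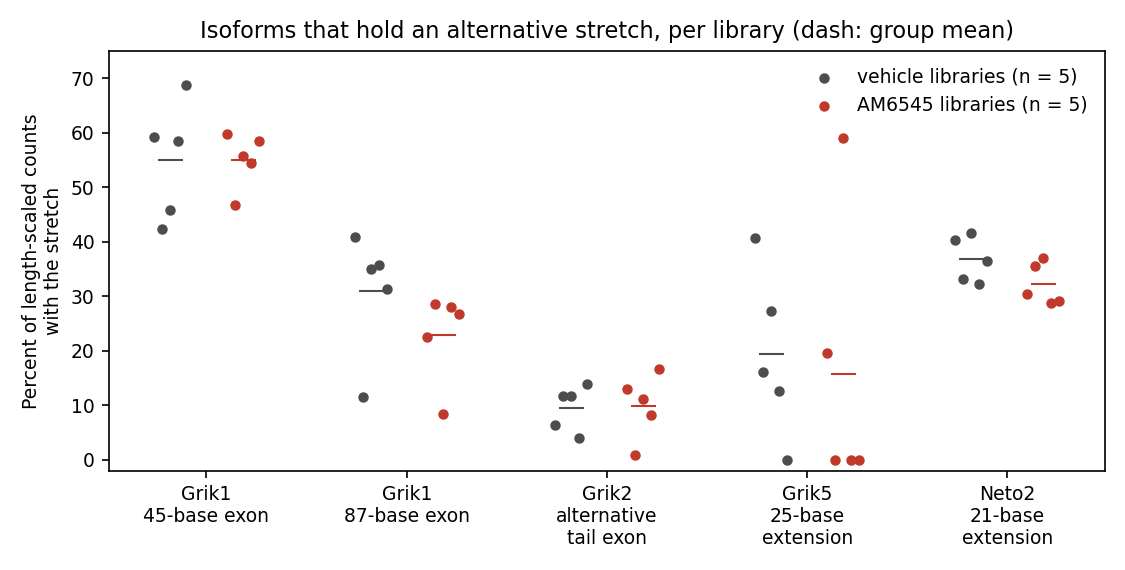
Percent of the summed TPM of a gene's compared transcripts, named in the text, that lies in those holding each alternative stretch. Points are libraries, by group, with dashes at group means. The Grik5 percent runs from 0 to 59.0 within the AM6545 group, while the Neto2 percent stays between 28.8 and 41.5 over all libraries.

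The genes that anchor, move, edit and regulate kainate receptors were taken from lists by role. Of 41 partner genes 40 were tested, Klhl17 not passing the filter on low counts, and 0 were higher and 0 lower at an adjusted p under 0.05 by edgeR, with 0 at an unadjusted p under 0.05, where the background was 0% and 1.88%. The DESeq2 Wald test also called 0 of them, with 0 at an unadjusted p under 0.05. Their log2 fold changes ran from -0.21 to 0.22 with a median of 0.05, and 27 of 40 were above 0, against a median of -0.01 over all 14358 genes and 48.1% of genes above 0. The 7 members had a median of 0.01 with 4 above 0.

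Scaffolds and adhesion proteins, such as the PDZ proteins that hold receptors at the synapse, were above 0 in 9 of 11 cases (median log2 fold change 0.05). Ctnnb1, beta-catenin, which links cadherins to the receptor, averaged 382 ± 45 CPM under vehicle and 428 ± 44.6 CPM under AM6545 (log2 fold change 0.16), and Dlg3, the scaffold SAP102, was at 92.2 and 104 CPM (log2 fold change 0.17). Of the 4 presynaptic organisers of the mossy fibre synapse 1 was above 0 (median -0.09). C1ql2, a secreted ligand that recruits kainate receptors there, was at 150 and 134 CPM (log2 fold change -0.16). The 11 tested trafficking genes had 5 above 0 and a median of -0.0038. Napa, which acts with NSF in membrane fusion, was at 487 and 438 CPM (log2 fold change -0.15).

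The 3 genes of the ADAR family, whose active enzymes recode the pore of Grik1 and Grik2 transcripts, were all above 0 with a median of 0.16. Adarb1 averaged 20.8 ± 1.19 CPM under vehicle and 23.3 ± 2.11 CPM under AM6545 (log2 fold change 0.16), and Adar was at 40.0 ± 5.55 and 44.7 ± 6.25 CPM (log2 fold change 0.16). Editing itself cannot be read from count tables. Of 11 kinase and signalling genes 9 were above 0 (median 0.06). Src, a tyrosine kinase, was at 7.10 and 8.30 CPM (log2 fold change 0.22). For each of these 7 named partners the adjusted p was 0.9998.

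Across the 10 libraries 49 relations were computed, 21 between members and 28 between a member and a marker score, and 1 had a p adjusted over all of them under 0.05. It was between Grik2 and the mean log2 CPM of 7 CA3 markers, with Pearson's r = -0.835 (permutation p = 0.0007, adjusted p = 0.0343) and Spearman's rho = -0.794 (permutation p = 0.0085, adjusted p = 0.208). Vehicle replicate 1 had the highest CA3 score, 5.53, and the lowest Grik2, and vehicle replicate 2 had the lowest CA3 score, 5.07. Without these 2 libraries r was -0.728 (permutation p = 0.0375). The Spearman coefficient did not pass the adjustment, and no relation between 2 members did.

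**Figure D5:**
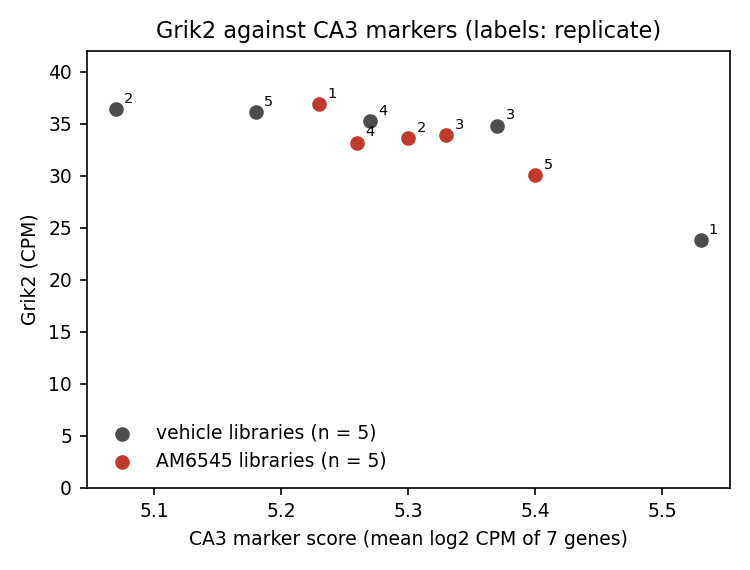
Grik2 CPM against the mean log2 CPM of 7 CA3 markers in the 10 libraries, coloured by group. Libraries with higher CA3 scores had lower Grik2 values, with r = -0.835, and the point lowest in Grik2 is vehicle replicate 1 at 23.8 CPM.

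Among the member pairs, Grik1 and Grik5 had r = 0.748 (permutation p = 0.00946, adjusted p = 0.157) and rho = 0.842 (permutation p = 0.00347, adjusted p = 0.170), and without the 2 libraries farthest from the median r was 0.827. Grik2 and Grik4 had r = 0.761 (permutation p = 0.0295, adjusted p = 0.241), which rested on vehicle replicate 1 and AM6545 replicate 5, since r was 0.25 without them. Grik2 and the interneuron score had r = -0.795 (permutation p = 0.00964, adjusted p = 0.157), and without its 2 farthest libraries r was -0.354. For Grik4 and that score r was -0.725 (permutation p = 0.0238, adjusted p = 0.233), and -0.61 without those libraries. For Grik1 it was -0.328 (permutation p = 0.363, adjusted p = 0.677), and -0.827 without them. Neto2 and the dentate gyrus score had r = 0.722 (permutation p = 0.021, adjusted p = 0.233), and 0.554 without its 2 farthest libraries. The pairs of members ran from r = -0.332 to 0.761.

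The genes whose pattern over the 10 libraries was most like each member were found by the highest Pearson r of log2 CPM among 11145 genes with a mean of at least 5 CPM, given here without a p. For Grik1 these were Pcdhac1 (r = 0.939) and Nell1 (0.918), and for Grik2 Ccdc82 (0.973) and Nptx1 (0.965). For Grik3 they were Slc8a2 (0.92) and Itgb2 (0.915), and for Grik4 Slc39a10 (0.966) and Tnfrsf21 (0.962). Grik5 was closest to Npc1 (0.956) and Gprc5b (0.939), Neto1 to Robo1 (0.915) and Frzb (0.882), and Neto2 to Cep250 (0.917) and Magi1 (0.907). These libraries share the differences in composition described above, and a high r over so few points is a description of them. For Grik2, leaving out vehicle replicate 1 took r with Nptx1 from 0.965 to 0.837 and with Ccdc82 from 0.973 to 0.883.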

How the data were processed

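The authors deposited estimated counts per gene and per transcript, made with Salmon 1.5.2 on build mm10, per the submitters' processing notes; the annotation release and use of strand are not given in the sources used here. Estimated counts were rounded. Groups came from the labels, and all 20 columns were tied to a library. Symbols, lengths and exons came from GENCODE M21 (GRCm38) by identifier without version, for 22155 of 22255 genes; 11 gene versions were the same.

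Genes and transcripts were tested over the whole tables with edgeR 4.0.16 in R 4.3.3 (TMM, filterByExpr minimum count 10 and total 15, robust quasi-likelihood, group alone, Benjamini-Hochberg, threshold 0.05, two-sided), and usage with diffSpliceDGE. TPM was computed from transcript counts and lengths. Shares had exact permutation tests over 252 arrangements, and relations had 100000 resamples on log2 CPM (prior count 2). DESeq2 1.42.0 and limma 3.58.1 served as alternatives. The scripts were tested on simulated data.

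The members and lists were chosen with earlier results of these data known. The isoform stretches were chosen after the annotation and mean transcript percentages were seen. Named transcripts had at least 10% of their gene's counts or an unadjusted p under 0.05. Named partners were the 2 of smallest p per list, of which some are not reported here, and likeness took 2 genes per member. No molecular identifiers are recorded, so amplified reads need not be separate molecules, and the uncertainty of dividing reads between transcripts is not in the errors.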

Additional observations from a re-analysis of the deposited data

Results flagged for a closer look

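In 38 groups of 5 libraries tested for a single distant library, 3 had one, where chance gives about 1.9. Grik2 in vehicle replicate 1 was at 23.8 CPM, with the other 4 vehicle libraries between 34.8 and 36.4 CPM. The Grik5 share of kainate receptor TPM in the same library was 47.5%, with the others between 34.2 and 37.5%. The Grik1 share in vehicle replicate 2 was 9.44%, with the others between 10.5 and 10.9%. The first 2 both concern vehicle replicate 1 and are not independent, since the share is computed from the Grik2 level among others.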

How the results depend on the processing

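Under every alternative run, 0 members, 0 of their transcripts, 0 usage tests, 0 shares and 0 partner genes passed an adjusted p of 0.05. For shares this outcome was nearly fixed by the design. Their test with the replicate block allows no p below 0.0625, and in the other runs a single share could not pass the adjustment. Of the alternatives other than leaving out a library, 148 values kept their direction and their side of the threshold, though not always their size: with the replicate block the log2 fold change was 1.69 for Grik1-201, in place of 0.38, and -2.50 for Grik1-202, in place of -0.77, and without length the Grik3 share difference was -0.744 points, in place of -0.330. The log2 fold changes that changed sign were Grik2 at -0.060 with limma-voom, Grik4 at 0.013 with the replicate block, and Grik5-202 at -0.0076 with DESeq2 and -2.82 with the replicate block. The kainate percent of ionotropic receptor TPM was 7.29 with merged exon lengths, 4.58 without length and 6.18 with coding transcripts alone, in place of 5.72. These settings change the lengths or the transcripts used for that percent. The cause of the changes of sign was not tested. Same-numbered libraries had correlations of deviations from -0.186 to 0.393, and 3 of 5 were closest to their own number. These values do not settle whether the numbers mark pairs. The labels name no pairing, so the main fit used none. The replicate block changed no call for the members, their transcripts or the partner genes, and for shares it could not.

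Leaving out each library in turn changed the sign of some differences. Log2 fold changes ran from -0.088 to 0.048 for Grik2, -0.13 to 0.082 for Grik4, -0.0056 to 0.075 for Neto2, -0.13 to 0.36 for Grik1-211, -0.098 to 0.063 for Grik2-202, -0.15 to 0.017 for Grik2-207, -0.20 to 0.027 for Grik4-201 and -2.0 to 0.49 for Grik5-202. Differences in share ran from -1.22 to 0.728 points for Grik2, -2.33 to 0.323 for Grik4 and -0.552 to 3.2 for Grik5. For the stretches, added after seeing the data, they ran from -2.93 to 3.62 for the Grik1 45-base exon, -1.29 to 2.68 for the Grik2 tail and -14.4 to 1.71 for Grik5. The Grik1 87-base exon kept its sign (-12.9 to -4.44), with an exact permutation p as low as 0.0159. Grik4-202 ran from 0.31 to 0.50, with a smallest edgeR p of 0.0173, and Neto1 from -0.20 to -0.10, with a smallest edgeR p of 0.0536. Ranges without a change of sign were 0.039 to 0.15 for Grik1, -0.18 to -0.046 for Grik3 and 0.0012 to 0.14 for Grik5, and for shares 0.157 to 0.529 points for Grik1, -0.451 to -0.155 for Grik3 and -3.96 to -2.04 for Neto1, whose exact permutation p was as low as 0.0476. Low counts limit the percentages of the Grik1 and Grik2 stretches, and the part of dividing shared reads between forms was not tested.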

Other observations

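Grik1-209, which holds both Grik1 alternative exons, took under 10% of the gene's counts on average and was picked out after its values were seen. It was estimated at 0, 0, 84, 59 and 0 counts in vehicle and 63, 0, 16, 71 and 0 counts in AM6545 libraries. Grik1-202, which holds only the 87-base exon, was at 88, 25, 0, 42 and 92 counts in vehicle and 0, 67, 0, 0 and 62 counts in AM6545 libraries. In 9 of 10 libraries 1 of these 2 forms was listed at 0 while the other was not.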
